A study of Lobaria pulmonaria with 11 samples.

Results

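In the lichen Lobaria pulmonaria, 173 of 12089 tested transcripts of the fungal partner met a rule for lower levels in all libraries of ultraviolet-B (UV-B) exposed thalli, with a gap of at least 1.5-fold to the unexposed ones and limits on level. For 3 of them, which are at 0 in all exposed libraries, 1 unexposed library is at 0 too. A lichen thallus is a joint body in which a fungus, the mycobiont, houses photosynthetic partners, here a green alga and a cyanobacterium. UV-B damages DNA and proteins, and fungi meet it with DNA repair, antioxidant enzymes, chaperones and screening pigments. In Lobaria pulmonaria the fungal cortex is known to darken with melanin under UV-B.

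The thalli were wild material from aspen trunks that had been dried, frozen, rewetted and then kept moist in a climate chamber. They were placed under erythema lamps for 80 min each day at 14.4 kJ/m2 per day. Groups were day 0 without UV-B (3 libraries), day 2 at a cumulative 28.8 kJ/m2 (3), day 7 at 100.8 kJ/m2 (2) and day 11 at 158.4 kJ/m2 (3). All groups had been through the same drying, freezing and rewetting, and no unexposed thalli of days 2, 7 or 11 were among the groups, so that UV-B and time kept wet cannot be told apart. Whole thalli were extracted, so fewer fungal cells of a type and less RNA per cell cannot be told apart either. The mycobiont counts came to 8680745 to 17626099 per library, and 71.1% to 81.0% of the trimmed reads of a library mapped to the fungal genome.

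The 173 members were chosen by their measured levels, in CPM (counts scaled to a common library total) after trimmed mean of M-values (TMM) scaling, which sets the bulk of transcripts level between libraries. A member had its highest CPM among the 8 irradiated libraries at or under its lowest day 0 CPM divided by 1.5, and a day 0 mean of at least 3 CPM. The 100 transcripts most abundant at day 0 were left out, and 2 of those would otherwise have qualified. The differences from day 0 therefore describe the choice and carry no test. Of the 10008 transcripts within the limits on level, the 5 members nearest the fold limit had ratios of 1.501 to 1.509, and the 5 transcripts just outside it 1.495 to 1.4996. A further 721 had ratios from 1 up to the limit. The files pair the transcript IDs with no gene names, so no function is given for any member. The transcript of widest gap and the one of highest day 0 CPM are named by ID, and others by rank. CPM is not per length, so ranks by level also carry transcript length.

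The size of the set depends on the scaling. The day 0 libraries had TMM factors of 1.16 to 1.27, and those of the irradiated libraries were 0.864 to 1.01. With library totals in their place, the median log2 fold change of all tested transcripts against day 0 moved from -0.03 to -0.45 for day 2. It moved from -0.02 to -0.35 for day 7 and from -0.02 to -0.47 for day 11. The rule then took 540 transcripts, all 173 among them, while the mirror rule for raised transcripts took 96 in place of 232. All levels and differences below are thus relative to the bulk of fungal transcripts.

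Most members were scarce to moderate transcripts. Their day 0 means ran from 3.04 to 383 CPM with a median of 12.8, against a median of 25.8 CPM over all tested transcripts. There were 70 members under 10 CPM at day 0, 92 from 10 up to 100 CPM and 11 at 100 CPM or more. The 10 most abundant held 38.3% of the summed day 0 level of the set. In counts, 105 members had at least 10 counts in every irradiated library, and 4 had under 10 in each of them.

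As a share of all fungal counts the set shrank from 0.554%, 0.671% and 0.686% in day 0 replicates 1, 2 and 3 to 0.172%, 0.205% and 0.134% in those of day 2. Of the day 7 libraries it made up 0.145% and 0.134%, and of the day 11 libraries 0.131%, 0.124% and 0.127%. Summed over the members, unexposed thalli had 5172 CPM ± 355 (SD, n = 3). This sum was 1849 CPM ± 324 after 2 days (n = 3), 1426 CPM ± 15.6 after 7 (n = 2) and 1417 CPM ± 62.8 after 11 (n = 3). In both measures every irradiated library lay below every day 0 library, which for the summed CPM follows from the rule. Replicate 3 of day 2 lay close to the later days.

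**Figure D1:**
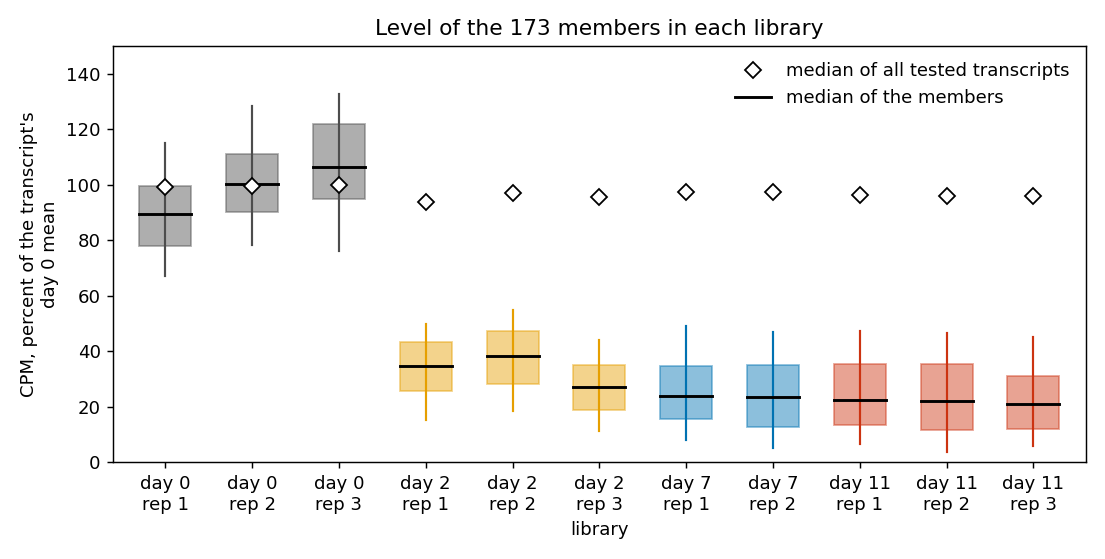
Level of the 173 members in each of the 11 libraries, as the percent of each transcript's own day 0 mean (boxes, 25th to 75th percentile; lines, 10th to 90th; black bar, median), with the median of all tested transcripts as diamonds. The members' medians are 89.3 to 106 at day 0, 27.2 to 38.4 at day 2 and 21.1 to 23.8 on days 7 and 11, while the diamonds stay between 93.8 and 100.

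The median member stood at 32.6% of its day 0 mean at day 2, 24.4% at day 7 and 22.8% at day 11. At or under 25% of the day 0 mean were 36 members at day 2, 87 at day 7 and 97 at day 11. At or under 10% there were 5, 24 and 23 in turn. Per library, the median was 34.8%, 38.4% and 27.2% in day 2 replicates 1, 2 and 3, and 21.1% to 23.8% in the 5 libraries of days 7 and 11. For all tested transcripts these medians were 93.8% to 97.4% in the irradiated libraries.

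The order of the medians by day 0 level differed between days, which was not tested. The day 0 mean sets the class and is also the base of the percent, so they are not independent. Members under 10 CPM at day 0 had a median of 17.6% of the day 0 mean at day 11, those from 10 up to 100 CPM 25.6% and the 11 at 100 CPM or more 32.9%. At day 2 the medians were 31.9%, 33.2% and 44.3%, and at day 7 they were 22.2%, 26.4% and 25.7%, so that the most abundant class was not the highest on that day. The ranges of the 3 classes overlapped at day 11, from 0% to 49.3%, from 0% to 55.2% and from 10.3% to 56.2%.

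Transcript 234058 had the widest gap, with its lowest day 0 value 5.31 times its highest irradiated value. Its level was 4.46, 11.35 and 6.70 CPM in the day 0 libraries, 0.840, 0.636 and 0.437 at day 2, 0 and 0.311 at day 7, and 0.301, 0 and 0.199 at day 11. All 8 irradiated libraries lay under 1 CPM, and the day 0 libraries themselves spread from 66 to 213 counts against 0 to 11 counts in the irradiated ones. Its mean over the irradiated libraries was 22.1-fold lower than that of day 0. The difference between days 11 and 2 was not called (log2 fold change -1.78, SE 0.87, edgeR adjusted p = 0.226). The rule used the values of both days, under a shared upper limit, but not their difference.

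The most abundant member, transcript 1302042, had 298, 510 and 340 CPM at day 0, or 383 ± 112 (SD, n = 3). It had 108, 79.0 and 42.8 CPM in the day 2 libraries, 44.98 and 19.1 in those of day 7, and 51.1, 123 and 21.1 in those of day 11. Day 11 replicate 2 was the highest of the irradiated libraries, above all of day 2, and day 7 replicate 2 the lowest. The irradiated mean was 6.27-fold lower than the day 0 mean. Between day 11 and day 2 no difference was detected (log2 fold change -0.24, SE 0.60, edgeR adjusted p = 0.839), and the sign turned without day 2 replicate 1 (0.0908) or day 11 replicate 3 (0.185).

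The other members of wide gap ranged from scarce to moderate. The second by gap had 9.54, 7.14 and 9.12 CPM at day 0 and 0.735 to 1.85 CPM in the irradiated libraries, without order by day. The third had 5.28, 5.01 and 2.68 CPM at day 0 and 0.0994 to 0.702 CPM later. The sixth had 27.1, 21.3 and 25.5 CPM at day 0, 3.84 to 4.51 CPM at day 2, 2.45 and 2.904 CPM at day 7, and 2.00, 6.82 and 3.38 CPM at day 11. A gap under 2 was found for 133 members and one of 3 or more for 7. The 133 include the 3 members with a day 0 library at 0, whose gap is 0.

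Members of high CPM differed in how even their replicates were. The tenth in level had 110, 109 and 119 CPM at day 0, 63.7, 55.6 and 44.5 CPM at day 2, 52.4 and 59.7 CPM at day 7, and 49.2, 56.7 and 44.1 CPM at day 11. The libraries of the 3 irradiated days overlapped. The ninth in level was as even at day 0, at 126, 123 and 129 CPM, but had 30.0, 70.2 and 13.6 CPM at day 2, 37.1 and 13.9 CPM at day 7, and 69.2, 27.1 and 28.2 CPM at day 11. Its 3 irradiated days overlapped as well, over a wider span than that of day 0.

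**Figure D2:**
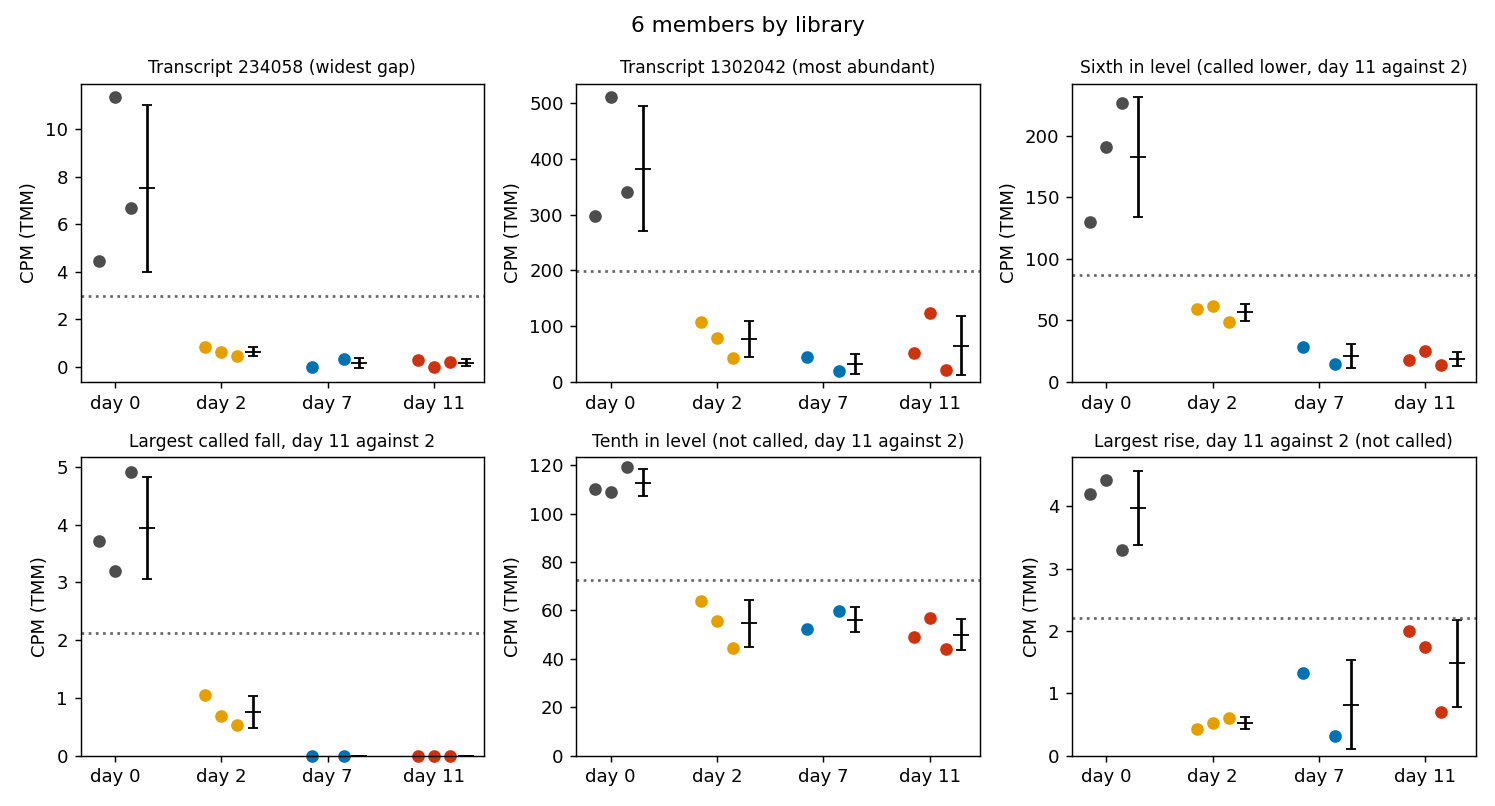
CPM of 6 members by library (dots), with the mean and SD of each day beside them and, as the dotted line, the rule's limit (lowest day 0 value divided by 1.5). Every irradiated dot is under the line, the sixth in level lies lower still after day 2, the tenth stays flat from 44.1 to 63.7 CPM, and the bottom right member lies higher at day 11 (1.48 CPM ± 0.692) than at day 2 (0.517 ± 0.0956).

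At 0 in some irradiated libraries were 15 members. Of these, 2 had counts at day 2 and none in any day 7 or day 11 library. The first of the pair had 55, 60 and 55 counts at day 0, 10, 12 and 6 at day 2 and 0 in the 5 later libraries, where a count of 0 allows at most 0.401 CPM in a library (3 counts). Its partner had 89, 97 and 43 counts at day 0 and 20, 12 and 1 at day 2. In both, day 2 lay between day 0 and the later days.

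Another 3 of the 15 were at 0 in all 8 irradiated libraries and also in day 0 replicate 3. They met the rule because 0 is not above 0 divided by 1.5. The first had 774 and 1206 counts in day 0 replicates 1 and 2, the second 61 and 128, and the third 21 and 232. These were detected in 2 of 11 libraries, unlike the other 170 members, whose day 0 libraries all lay above their irradiated ones. Such a lack of overlap in that direction was found for 8.82% of all tested transcripts, a share that the rule itself drew on. Without the 3, the irradiated mean of a member was 4.53% to 53.1% of its day 0 mean, with a median of 28.5%.

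Tests against day 0 were run for all transcripts and are given for the members as a description, since the rule used the same contrasts. In the quasi-likelihood test of edgeR at an adjusted p under 0.05, 127 members were called lower at day 2 (4.47% of all tested transcripts were), 142 at day 7 (7.86%) and 161 at day 11 (13.8%). Called lower on all 3 days were 112 members (1.83% of all tested), on 2 days 40, on 1 day 14 and on none 7. Leaving out day 0 replicate 2 or 3 gave 64 or 72 member calls for day 2, and leaving out day 2 replicate 3 gave 51. Lower calls over all tested transcripts fell as well, from 540 to 164, 213 and 127 in that order. Leaving out a day 7 replicate leaves 1 library on that day, so no counts from such fits are given for day 7. The members' median log2 fold changes were -1.61, -2.02 and -2.13 on the 3 days, with median standard errors of 0.38, 0.45 and 0.39.

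Each library was also set against transcripts chosen without it, as a description. The libraries on the other side of that comparison did take part in the choice, while all tested transcripts were not chosen. The shares of chosen transcripts can therefore lie higher in part through the choice. The rule was applied to 10 libraries at a time, and the 11th was then placed, with the scaling and the expression filter still taken from all 11. Without day 0 replicate 1, 357 transcripts were chosen, and 295 of them (82.6%) had that library above all 8 irradiated ones, as 17.1% of all tested transcripts did. Without day 0 replicate 2 the figures were 198 of 209 (94.7%), against 21.4% of all tested. Without day 0 replicate 3 they were 212 of 246 (86.2%), against 22.5%. The full 1.5-fold gap was met by fewer, 49.0% in replicate 1, 80.9% in replicate 2 and 67.9% in replicate 3, against 4.22%, 6.51% and 8.5% of all tested. These were 175, 169 and 167 transcripts, close to the 173 members, so the shares largely follow the number chosen.

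Irradiated libraries left out in turn lay below all day 0 libraries for most of the transcripts chosen without them. This held for 83.2% of 285 transcripts in day 2 replicate 1 (35.3% of all tested), 94.0% of 232 in replicate 2 (33.6%) and 94.1% of 185 in replicate 3 (36.1%). On day 7 it was 97.3% of 184 in replicate 1 (35.5%) and 98.4% of 187 in replicate 2 (36.6%). On day 11 it was 96.3% of 187 (37.1%), 97.3% of 183 (37.6%) and 97.8% of 184 (37.6%) in replicates 1, 2 and 3. The full gap was met by 60.7%, 74.6% and 93.5% in day 2 replicates 1, 2 and 3, against 16.6%, 12.5% and 16.7% of all tested. On day 7 it was met by 94.0% and 92.5%, against 18.5% and 19.7%, and on day 11 by 92.5%, 94.5% and 94.0%, against 20.2%, 20.9% and 20.3%. The transcripts that met the full gap were the 173 members each time, so these full-gap shares only restate the number chosen. By side alone, the lowest shares belonged to day 0 replicate 1 and day 2 replicate 1. The number chosen, which is the base of the shares, was also highest without these 2 libraries.

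**Figure D3:**
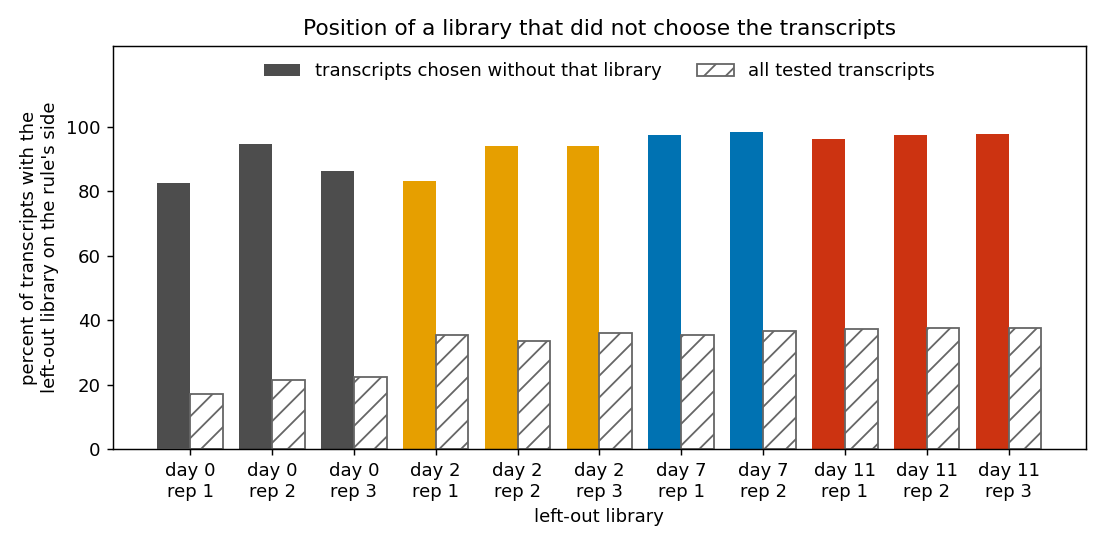
For each library in turn, the percent of transcripts chosen from the other 10 libraries whose value in the left-out library was on the rule's side (above all irradiated libraries for day 0, below all day 0 libraries otherwise), beside the same percent for all 12089 tested transcripts (hatched). The chosen transcripts reach 82.6% to 98.4%, and all tested transcripts 17.1% to 37.6%. For the chosen transcripts, the libraries on the other side of the comparison took part in the choice.

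In most members a day 2 library had the highest irradiated level. Leaving aside the 3 members at 0, the highest irradiated library was of day 2 in 118 of 170 members (69.4%), of day 7 in 21 and of day 11 in 31. Within day 2 it was replicate 2 in 61 members, replicate 1 in 44 and replicate 3 in 13. Of the 8 irradiated libraries, 3 are of day 2 and 2 of day 7. Neither split was counted over all tested transcripts, so neither is shown to be particular to the members. Replicate 3 was the lowest day 2 library for 104 members (61.2%), as it was for 30.0% of all tested transcripts with a day 2 count. Taken without day 2, the rule chose 740 transcripts, against 205 without day 7 and 228 without day 11. At day 0, replicate 1 was the lowest library for 90 members, a count not taken over all tested transcripts. The median member had 89.3%, 100% and 106% of its day 0 mean in replicates 1, 2 and 3. Over all tested transcripts these medians were 99.3%, 99.4% and 100%.

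Between the irradiated days, in comparisons whose fold changes take no day 0 level, some members were lower on the later days, while 146 of 173 were called neither at day 7 nor at day 11 against day 2. The rule held the 3 days under 1 limit alike, which bounds how far a member could lie above the others on any of them. All tested transcripts have no such limit, so their shares, here and below, are not a like background for either direction. At day 11, 27 members (15.6%) were called lower than at day 2, as were 6.6% of all tested transcripts. None was called higher, where 4.08% of all tested were. Of the members 78.6% had a log2 fold change below 0, with a median of -0.48 and a median standard error of 0.37, against 51.2% and a median of -0.01 over all tested transcripts. At an unadjusted p under 0.05, 48 members (27.7%, against 14.8% of all tested) were lower and 1 (0.578%, against 11.8%) was higher.

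This count moved with single libraries. It was 14 when day 2 replicate 1 was left out and 17 for replicate 2, of which 2 were called higher. Leaving out replicate 1, 2 or 3 of day 11 gave 13, 15 or 16. Calls over all tested transcripts, in either direction, went down as well, from 1291 to 731 and 1006 for these 2 day 2 libraries and to 499, 724 and 940 for those of day 11. A fit on the libraries of the 2 days alone called 10 members and 633 transcripts in all. DESeq2 called 30 members lower (10.1% of all tested) and none higher (7.65%). With all 3 day 11 libraries below all 3 day 2 libraries were 56 members (32.4%, against 16.7% of all tested), and with all above 4 (2.31%, against 15.2%).

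The 27 members called lower, a group chosen by this difference, had stood at a median of 38.0% of the day 0 mean at day 2, above the 32.3% of the other members. They reached 11.7% at day 7 and 11.3% at day 11, where the others stood at 25.8% on both days. All 27 were at or under 25% of the day 0 mean at day 11, and in each the day 11 libraries lay below those of day 2 without overlap. Their log2 fold changes ran from -6.17 to -0.96 with a median of -1.71, and their edgeR adjusted p from 0.00924 to 0.0494. By day 0 level, 10 of them were under 10 CPM, 13 from 10 up to 100 CPM and 4 at 100 CPM or more.

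Among the abundant ones, the sixth in level had 130, 191 and 227 CPM at day 0, 59.1, 61.5 and 48.8 CPM at day 2, 28.1 and 14.2 CPM at day 7, and 17.6, 25.1 and 13.5 CPM at day 11. Each step left the days without overlap, apart from days 7 and 11, which overlapped. Its log2 fold change at day 11 against day 2 was -1.59 (SE 0.32, edgeR adjusted p = 0.0147). The second in level had 325, 241 and 240 CPM at day 0 and 154, 105 and 106 CPM at day 2. It then had 47.6 and 57.5 CPM at day 7 and 74.6, 59.1 and 51.4 CPM at day 11, a log2 fold change of -0.98 against day 2 (SE 0.22, edgeR adjusted p = 0.0215). Its levels of days 7 and 11 overlapped as well.

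The largest called fall after day 2 was that of the member with 10, 12 and 6 counts at day 2 and none later, described above. Next came a member with 15.4, 17.3 and 18.1 CPM at day 0 and 3.57, 7.40 and 1.31 CPM at day 2. It had 0.307 and 0.104 CPM at day 7 and 0, 0 and 0.298 CPM at day 11, a log2 fold change of -5.13 (SE 0.96, edgeR adjusted p = 0.0115). The size of such folds is imprecise, as the later libraries hold few or no counts.

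**Figure D4:**
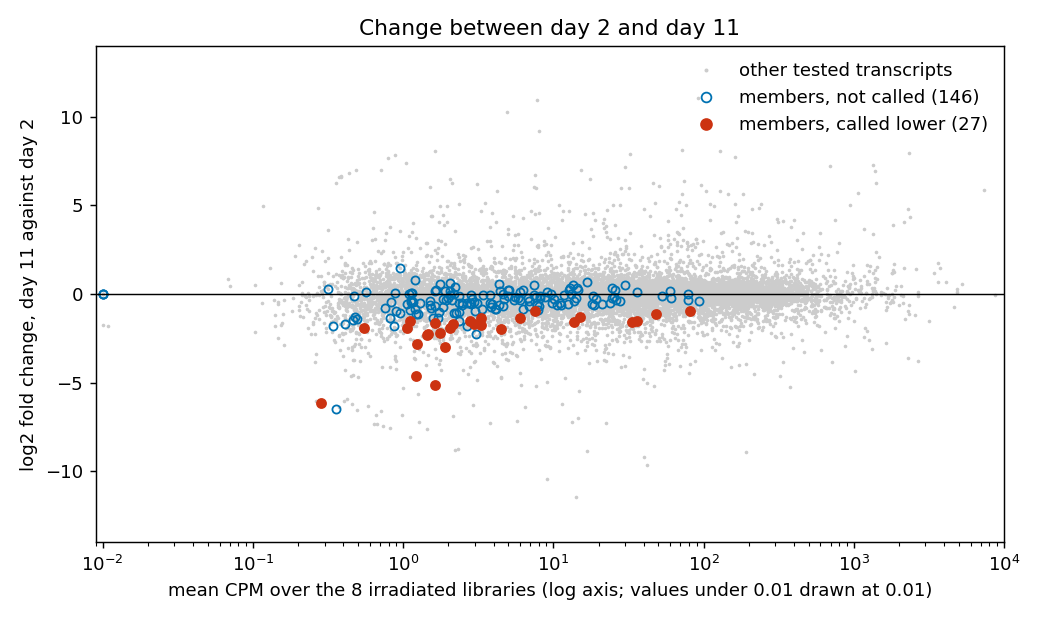
Log2 fold change of day 11 against day 2 for all tested transcripts, by their mean CPM over the 8 irradiated libraries (log axis), with the 146 members not called (open circles) and the 27 called lower (filled). The called members lie between -6.17 and -0.96, and the highest member lies at 1.49, not called. The 3 members at 0 in all irradiated libraries are drawn at the left edge.

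At day 7, 8 members (4.62%) were called lower than at day 2 and none higher, against 3.33% and 2.23% of all tested transcripts, a share near that of the whole table. All 8 were among the 27. At an unadjusted p under 0.05, 35 members (20.2%, against 12.4%) were lower and 4 (2.31%, against 10.5%) higher. The count of 8 at the adjusted p was 4 when day 2 replicate 1 was left out. Calls over all tested transcripts, in either direction, went down as well, from 673 to 332. Without a day 7 replicate, 1 library is left on that day, so no such count is given. DESeq2 called 17 lower (8.23% of all tested) and none higher (5.72%). With both day 7 libraries below all day 2 libraries were 52 members (30.1%, against 20.9%), and with both above 7 (4.05%, against 19.9%). The median log2 fold change of the members was -0.42, with a median standard error of 0.42.

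Between day 7 and day 11 no change of single members was detected with edgeR. No member and no other tested transcript was called by edgeR, and at an unadjusted p under 0.05 there were 5 members lower (2.89%, against 2.55% of all tested) and 1 higher (0.578%, against 2.6%). DESeq2 called 1 member (0.596% of all tested). The members' median log2 fold change was -0.07, with the 5th and 95th percentiles at -0.86 and 0.83 and a median standard error of 0.42. Day 11 lay below day 7 without overlap in 26 members (15.0%, against 10.3%) and above it in 6 (3.47%, against 9.48%).

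By their means, 116 members were lower on both day 7 and day 11 than on day 2, and 26 were higher on both. The lowest day was day 11 for 82 members, day 7 for 62 and day 2 for 29. In 63 members the mean fell from day 2 to day 7 and again to day 11. These orders of means were not counted over all tested transcripts and carry no test. The largest rise from day 2 to day 11 was seen in a scarce member with 4.19, 4.42 and 3.31 CPM at day 0, 0.420, 0.520 and 0.611 CPM at day 2, 1.33 and 0.311 CPM at day 7, and 2.00, 1.74 and 0.696 CPM at day 11. Its day 11 libraries lay above those of day 2, but the difference was not called (log2 fold change 1.49, SE 0.56, edgeR adjusted p = 0.121).

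Between replicates the members were somewhat more variable than the whole table. Their median coefficient of variation was 20.8%, 28.5%, 24.3% and 29.5% on days 0, 2, 7 and 11, while over all tested transcripts it was 19.8%, 24.1%, 17.4% and 21.9% in that order. The members are scarcer as well, and the part of level in this difference was not tested. Leaving aside the 3 with a day 0 library at 0, the highest day 0 library was 1.03 to 4.73 times the lowest, with a median of 1.48 against 1.46 over all tested transcripts with a count in each.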

How the data were processed

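Polyadenylated RNA of whole thalli was sequenced as directional single-end libraries, per the labels. The authors deposited raw counts per transcript ID and library for the mycobiont (15607 transcripts), and per the file headers a table of kept and mapped reads. The submitters' processing notes name HISAT2, edgeR, HTSeq 0.5.4, Trimmomatic 0.39 and FastQC 0.11.8. No build, gene models or strand setting is given in the sources used here; overlapping or near-identical transcripts remain uncertain. The replicates are biological per the series' design text.

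From the counts, CPM with TMM scaling and the quasi-likelihood F test were computed in edgeR 4.0.16 (R 4.3.3; default expression filter by day, robust fit, 1 fit over all 11 libraries, Benjamini-Hochberg adjustment over 12089 transcripts, threshold 0.05). The standard error is the absolute log2 fold change divided by the square root of F. DESeq2 1.42.0 was an alternative, with other scalings, filters, rule limits, a replicate block and each library left out. The procedure was tested on simulated data. The gap is the lowest day 0 CPM divided by the highest irradiated CPM, taken as at least 3 counts. The members and comparisons were chosen with earlier results of these data known. Named by ID are the members of widest gap and highest day 0 level; members outside the first 10 by either order were picked after their values were seen. No member qualified under the rule for a called rise between irradiated days.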

Additional observations from a re-analysis of the deposited data

How the results depend on the processing

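The rule took 540 transcripts with library totals, 378 at a looser fold limit, 43 at a fold of 2, 103 with a day 0 mean of at least 10 CPM and 740 without day 2. It took 183 to 357 without single libraries, the highest without day 0 replicate 1, then 285 without day 2 replicate 1. DESeq2 size factors (173, of which 170 shared), no expression filter (168, 162 shared) and the other limits gave 168 to 228. Without single libraries, members called lower against day 0 were 51 to 136 at day 2 and 44 to 146 at day 7, and members called were 0 to 11 at day 7 against day 2 and 13 to 23 at day 11 against day 2. With only the libraries of the 2 days, members called at day 7 and day 11 against day 2 were 0 and 10, with DESeq2 17 and 30. Calls over all tested transcripts were 113 and 633, and with DESeq2 1687 and 2150. DESeq2 called 1 member at day 11 against day 7. Among these settings, only the fit without day 2 replicate 2 called members higher between irradiated days, 2 at day 7 and 2 at day 11 against day 2.

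Whether replicate numbers pair the libraries was not settled. Deviations of the 15 same-numbered pairs had correlations from -0.0769 to 0.386, over 0.1 in 4 of them. Correlated best with their own number were 5 of 11 libraries. So few libraries per day cannot exclude a pairing. With the replicate block, 4 and 15 members were called at day 7 and day 11 against day 2, in place of 8 and 27. Calls over all tested transcripts, in either direction, went down as well, to 263 and 822 in place of 673 and 1291. For transcript 1302042 the log2 fold change of day 11 against day 2 ran from -1.08 (without day 11 replicate 2) to 0.185 (without day 11 replicate 3) and was 0.0908 without day 2 replicate 1. Its call against day 0 was lost in 8, 2 and 1 of 17 settings on days 2, 7 and 11, and that of transcript 234058 in 2, 0 and 0. The cause was not tested for any of these. Members under 10 CPM are limited by depth, since 3 counts make up to 0.401 CPM.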

Other observations

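The rule and the test against day 0 picked partly different transcripts. Of the 221 transcripts that edgeR called lower on all 3 irradiated days, 112 were members and 109 were not. Among these 109, 99 were within the limits on level but had a ratio of lowest day 0 to highest irradiated CPM under 1.5, 8 were under 3 CPM at day 0 and 2 were among the 100 most abundant at day 0. In the whole table, 1066 transcripts had all 8 irradiated libraries below all 3 day 0 libraries and 1317 had them all above, a split that depends on the scaling.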
